A study of Mus musculus with 2 samples.

Results

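Respiratory complex I, the NADH:ubiquinone oxidoreductase of the inner mitochondrial membrane, was examined through the genes of its subunits in brown preadipocytes before induction (D0) and in brown adipocytes after it (D7). Members were the rows with values whose symbol began with Nduf followed by a, ab, b, c, s or v and a number, which left out the Ndufaf assembly factors. The rule found 38 of the 23361 genes with values. Complex I takes electrons from NADH at the tip of a peripheral arm, passes them along iron-sulfur clusters to ubiquinone where that arm meets the membrane, and pumps protons through its membrane arm. Core subunits, conserved from bacteria, carry out this chemistry, and accessory subunits surround and stabilize them. Brown adipocytes are rich in mitochondria, and there the proton gradient built by the respiratory chain can be discharged as heat by UCP1.

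RNA-Seq was available for 1 library of brown preadipocytes (D0) and 1 library of brown adipocytes (D7), 2 in all. The cells came from interscapular brown fat of newborn mice of either sex, of the strain C57BL/6 by the labels and C57BL/6J by the methods. The labels call them primary cultures, and the methods describe immortalization with a retroviral large T antigen. Which of these applies to the sequenced cells was not settled, but neither source gives a difference between the stages in strain or in large T. Whether a library pools several animals was not stated. At D0 the cells stood at the point of induction, and at D7 they had been given 0.5 mM IBMX, 0.125 mM indomethacin and 2 μg/ml dexamethasone for 2 days within culture in insulin and triiodothyronine (T3), with 0.1 μM and 1 nM as the labelled doses. The methods give other doses of dexamethasone and insulin than these labels. The values are FPKM, fragments scaled to transcript length and library size, so levels can be compared between genes per length. Fragment numbers behind the values were estimated with a scale fitted on single-exon genes and 1 transcript length per member. By this estimate the members had 185 to 5970 fragments at D0 and 192 to 14987 at D7. With 1 library per stage no difference has a replicate check. The 95% intervals below (exact Clopper-Pearson on fragments) cover counting error only and compare these libraries, not the stages.

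Of 10 adipocyte markers, 9 were above 0 in both libraries and all 9 rose, and their summed level was 87.1 FPKM at D0 and 18798 at D7. Of 11 macrophage markers, 10 rose and the other was higher by less than 2.0-fold, and none was at 0 in both libraries, with sums of 156 and 584 FPKM. Of 8 proliferation markers, 7 fell, with sums of 103 and 46.8. The 8 preadipocyte and fibroblast markers summed to 4234 and 2174, with 2 higher and 2 lower by 2.0-fold. Endothelial markers summed to 1.62 and 2.69 with 1 of 7 at 0 in both libraries, muscle markers to 52.4 and 5.84 with 2 of 8 at 0, and 5 of 6 erythroid markers were at 0. The part of these shifts in the values below was not tested.

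Short reference sequences are shown because several transcription factors known for binding promoters of respiratory genes have their own RNA in these libraries. The windows run from 250 bases before to 50 after the RefSeq start (GRCm38.p6), and 33 of the 38 members were matched, in 35 windows among 32851. The letters searched on both strands were GCGCA, any base and GCGC for Nrf1, CCGGAAG for Gabpa, AAGGTCA for Esrra and AANATGGCG for Yy1, and no match of different motifs overlapped in a member. Below, capitals mark the letters matched. Ndufb4 is shown because its window alone held 3 Nrf1 matches, Ndufs6 because it held an Nrf1 and a Yy1 match, Ndufa11 and Ndufa8 as members whose level differed by less than 2.0-fold, and Ndufs7 and Ndufa9 as Yy1 matches in members with high ratios. Nrf1 matches not shown lay in Ndufa5, Ndufa6 and Ndufs5 (ratios 2.65, 2.82 and 1.85). Yy1 matches not shown lay in Ndufa7, Ndufb11, Ndufc1 and Ndufs4 (ratios 1.35, 2.77, 2.39 and 1.87). The sequences shown are thus no sample of ratios by motif. Positions count from 1 at the RefSeq start, negative before it. The GENCODE annotation used for gene positions starts some of these genes further upstream. By it the whole Ndufs7 window lies inside the gene. So do the Nrf1 matches of Ndufb4 at -22 and -79, of Ndufs6 at -16 and of Ndufa8 at -30.
Ndufb4, Nrf1, position -22, chr16:37654371-37654400, minus strand: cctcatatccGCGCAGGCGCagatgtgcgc
Ndufb4, Nrf1, position -79, chr16:37654428-37654457, minus strand: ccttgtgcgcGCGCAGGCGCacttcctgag
Ndufb4, Nrf1, position -191, chr16:37654540-37654569, minus strand: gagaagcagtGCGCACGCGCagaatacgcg
Ndufs6, Nrf1, position -16, chr13:73328479-73328508, minus strand: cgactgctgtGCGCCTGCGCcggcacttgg
Ndufa8, Nrf1, position -30, chr2:36049349-36049378, minus strand: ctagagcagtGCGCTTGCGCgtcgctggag
Ndufa11, Nrf1, position -60, chr17:56717692-56717721, plus strand: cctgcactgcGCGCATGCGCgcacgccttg
Ndufs6, Yy1, position 34, chr13:73328433-73328462, minus strand: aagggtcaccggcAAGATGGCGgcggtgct
Ndufs7, Yy1, position 25, chr10:80249463-80249492, plus strand: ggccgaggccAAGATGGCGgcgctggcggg
Ndufa9, Yy1, position 30, chr6:126849096-126849125, minus strand: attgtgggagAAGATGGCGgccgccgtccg

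The promoter window of Ndufv1, the member with the highest ratio, held none of these motifs. Its stretch free of annotated exons, from position -250 to -52 (chr19:4012807-4013005, minus strand, 199 bases), is given with no base marked.
Ndufv1, upstream stretch: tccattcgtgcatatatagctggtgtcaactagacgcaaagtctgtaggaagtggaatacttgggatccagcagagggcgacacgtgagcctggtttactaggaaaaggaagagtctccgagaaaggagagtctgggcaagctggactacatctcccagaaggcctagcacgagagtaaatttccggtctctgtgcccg

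The complex I subunits were upregulated as a set. Their median level was 99.9 FPKM at D0 and 264 FPKM at D7, with ranges of 19.8 to 348 and 22.5 to 768. All 38 were higher at D7, or 36 when each library was divided by its median over all rows, where Ndufa11 and Ndufa4l2 were lower. By the 2.0-fold rule of the study 26 rose, 0 fell and 12 stayed within 2.0-fold, beside 18.5% of all 14986 genes above 0 in both libraries that rose and 13.2% that fell. The median ratio of D7 to D0 was 2.41 over the members and 1.01 over all genes, and 50.6% of all genes were higher at D7. In bulk RNA, a change in the share of cells of a type and a change in RNA per cell cannot be told apart. No member was at a low level, so shares among genes of like level are also given. Of 10773 genes with at least 1 FPKM in both libraries 11.8% rose and 9.86% fell, and of 3899 genes with at least 19 FPKM at D0, a limit set after the lowest member was seen, 7.62% rose and 14.4% fell.

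The summed level of the 38 subunits was 4313 FPKM at D0 and 10214 FPKM at D7 (ratio 2.37), or 0.842% and 1.96% of all FPKM in each library. The interval of 37 members lay above 1, with Ndufa4l2 as the exception. The whole interval was at or above 2 for 23 members and below 2 for 10, and the intervals of the remaining 5 included 2. Rescaling to the median over all rows lowered every log2 ratio by 0.35, since the D7 library had a higher median over all rows (0.932 FPKM) than the D0 library (0.730 FPKM). Then 17 members passed 2.0-fold, beside 13.4% of all genes higher and 21.7% lower.

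**Figure D1:**
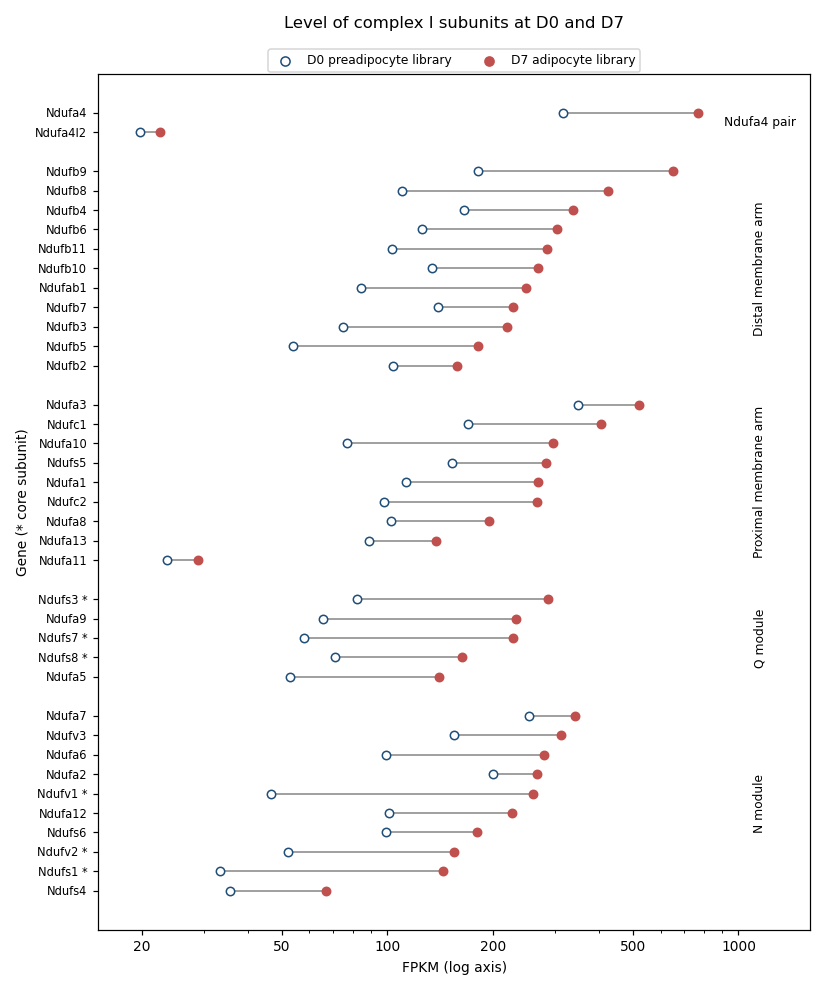
FPKM on a log axis for 37 of the 38 members, open circles for the D0 library and filled circles for the D7 library, grouped by place in the complex with core subunits starred. Every filled circle lies to the right of its open circle (except those of Ndufa11 and Ndufa4l2 under the scaling by the median of all rows), and Ndufa4l2 and Ndufa11 have the lowest levels at both stages.

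Levels kept much of their order between stages. Across the 38 genes, which share both libraries, Spearman's rho between the D0 and D7 levels was 0.78 and Pearson's r on the log2 scale was 0.84. The 5 highest levels at D0 were those of Ndufa3, Ndufa4, Ndufa7, Ndufa2 and Ndufb9, at 348, 317, 253, 199.6 and 181 FPKM. At D7 the highest levels included those of Ndufa4, Ndufb9, Ndufa3 and Ndufb8, at 768, 651, 522 and 426 FPKM. Ndufb8 and Ndufb9 thus stood among the highest levels at D7, and Ndufa7 and Ndufa2 were no longer among the 5 highest. At the low end stood Ndufa4l2, Ndufa11, Ndufs1, Ndufs4 and Ndufv1 at D0, with 19.8, 23.5, 33.4, 35.7 and 46.7 FPKM. Within 2-fold of the median were 30 members at D0 and 33 at D7. The SD of log2 levels was 0.93 at D0 and 1.00 at D7, and without Ndufa4 and Ndufa4l2 it was 0.82 and 0.80, so whether levels spread or drew together turned on that pair.

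The 7 core subunits encoded in the nucleus all rose, and each had its whole interval above 2, although Ndufs8 stood at 1.80 and lost the call when libraries were divided by their median over all rows. Ndufv1 (chr19:4007384-4012806, minus strand, mm10), which binds FMN and accepts the electrons of NADH, had 46.7 FPKM at D0 and 260 FPKM at D7, and the ratio was 5.56 (95% interval 5.26 to 5.88). Ndufs1 (chr1:63143596-63176833, minus strand), the largest subunit and a carrier of iron-sulfur clusters, had 33.4 and 144 FPKM, a ratio of 4.31 (4.09 to 4.54). These were the highest ratios of the whole set, and the interval of Ndufv1 lay above that of every other member, while that of Ndufs1 overlapped that of Ndufs7. Ndufv2, the partner of Ndufv1 at the NADH-oxidizing tip, had 52.1 and 155 FPKM, a ratio of 2.98 (2.81 to 3.15). The ratios within the NADH-oxidizing core thus spanned from 2.98 to 5.56.

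At the quinone-reducing base the ratio of Ndufs8 lay below those of Ndufs7 and Ndufs3. Ndufs7, which holds the last iron-sulfur cluster before ubiquinone, had 58.0 and 228 FPKM, a ratio of 3.94 (3.62 to 4.28). Ndufs3 had 82.0 and 286 FPKM, a ratio of 3.49 (3.29 to 3.70). Ndufs8, a ferredoxin-like carrier of iron-sulfur clusters, had 70.9 and 163 FPKM, the lowest ratio of the core at 2.30 (2.14 to 2.46). The deposited locus of Ndufs7 spans 672 kb and takes in 55 other genes, whereas the annotated gene is 7.67 kb long (chr10:80249121-80256794, plus strand), so its value is uncertain.

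Core subunits started lower and had higher ratios than accessory subunits. The median level of the 7 core subunits was 58.0 FPKM at D0 and 228 at D7, and that of the 29 accessory subunits (without Ndufa4 and Ndufa4l2) was 103 and 267. The core median was therefore 0.563 of the accessory median at D0 and 0.854 at D7. The median ratio was 3.49 for the core, with a range of 2.30 to 5.56, and 2.24 for the accessory subunits, with a range of 1.23 to 3.88. Of the accessory subunits 18 rose (11 under the scaling by the median of all rows), 4 had a ratio above the core median, and 15 lay below the lowest core ratio. The difference between core and accessory subunits has no test with 1 library per stage.

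**Figure D2:**
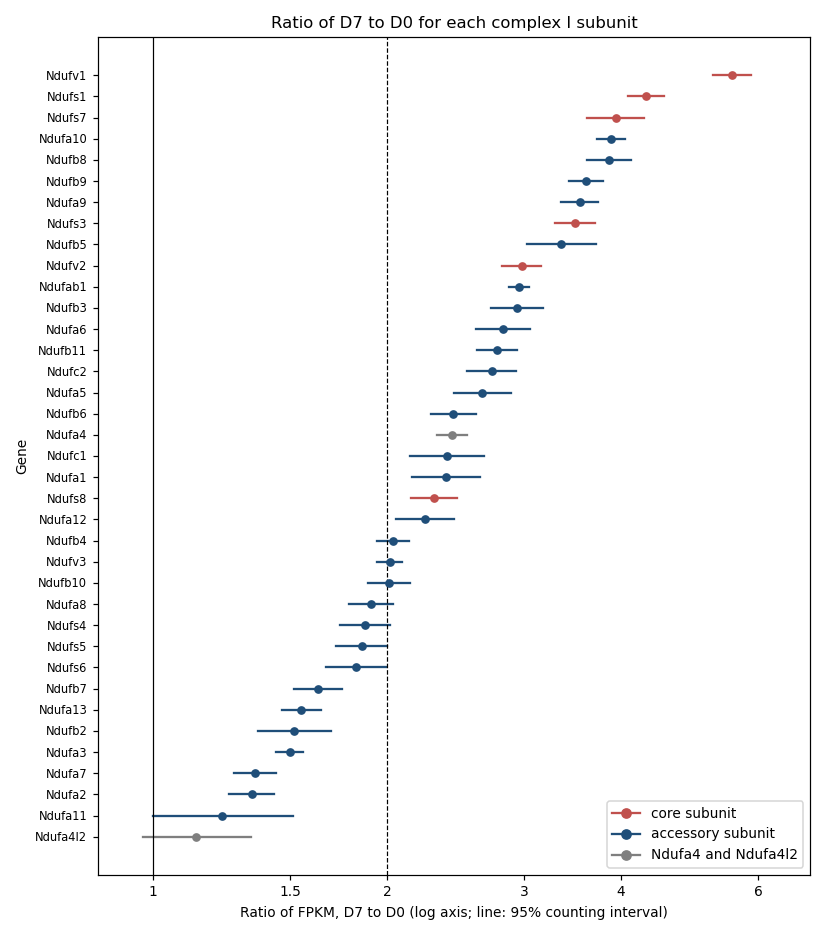
Ratio of FPKM, D7 to D0, on a log axis for 37 of the 38 members in order, with the 95% counting interval as a line, a solid line at 1 and a dashed line at 2. The core subunits lie between 2.30 and 5.56 and accessory subunits between 1.23 and 3.88. Under the scaling by the median of all rows Ndufa11 and Ndufa4l2 would lie below 1.

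By place in the complex, the base of the peripheral arm (Q module) had the highest median ratio. The nuclear core subunits all lie in the peripheral arm, and places were not compared among accessory subunits alone. All 6 of its members rose (5 without Ndufs8 under the scaling by the median of all rows), with a median of 3.46 and a range of 2.30 to 3.94. Its accessory members were Ndufa9, a nucleotide-binding subunit, with 65.7 and 232 FPKM (ratio 3.54), and Ndufa5, with 52.9 and 140 FPKM (ratio 2.65). No accessory member of this module fell short of 2.0-fold.

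The tip of the peripheral arm (N module), where NADH is oxidized, was the most uneven. Of 10 members 6 rose, and the median ratio was 2.12 with a range of 1.34 to 5.56. Ndufa6, of the LYR protein family, had 98.9 and 279 FPKM (ratio 2.82), and Ndufa12 had 101 and 226 FPKM (ratio 2.24). Ndufv3 passed narrowly, with 155 and 312 FPKM and a ratio of 2.02 (1.94 to 2.09). Below the 2.0-fold rule stood Ndufs4, whose loss in mice gives a model of Leigh syndrome, with 35.7 and 67.0 FPKM (ratio 1.87), and Ndufs6, a zinc-binding subunit, with 98.8 and 180.2 FPKM (ratio 1.82). Ndufa7 had 253 and 342 FPKM, a ratio of 1.35 (1.27 to 1.44), and Ndufa2, with a thioredoxin-like fold, had 199.6 and 267 FPKM, a ratio of 1.34 (1.25 to 1.43). Ndufa7 and Ndufa2 had the highest D0 levels of this module and its lowest ratios.

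The distal membrane arm also rose in large part. Of 13 listed genes 11 had values, 9 of these rose, and the median ratio was 2.77 with a range of 1.52 to 3.86. Ndufb8 (chr19:44548572-44555440, minus strand), a subunit often used on immunoblots to follow complex I because the protein is unstable outside it, had 110 and 426 FPKM, a ratio of 3.86 (3.61 to 4.12). Ndufb9, another LYR protein, had 181 and 651 FPKM (ratio 3.60), and Ndufb5 had 53.9 and 181 FPKM (ratio 3.35). These lay among the core ratios. Ndufab1, the mitochondrial acyl carrier protein, which also serves fatty acid synthesis in mitochondria, had 84.2 and 248.9 FPKM, a ratio of 2.95 (2.87 to 3.05).

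The other distal members ran from Ndufb3, with 74.6 and 219 FPKM (ratio 2.94), and the X-linked Ndufb11, with 103 and 286 FPKM (ratio 2.77), down to Ndufb2, with 104 and 158 FPKM (ratio 1.52). Ndufb6 stood at 125 and 305 FPKM (ratio 2.43). Ndufb4, with 166 and 338 FPKM (ratio 2.04, 1.94 to 2.13), and Ndufb10, with 134 and 269 FPKM (ratio 2.01, 1.89 to 2.14), passed the 2.0-fold rule within counting error. Ndufb7 had 139 and 228 FPKM (ratio 1.63). Ndufb7 and Ndufb10 both face the intermembrane space with paired cysteine motifs.

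The proximal membrane arm, where no member was a core subunit, had the lowest median ratio. Of 9 members 4 rose (2 under the scaling by the median of all rows), the median was 1.90 and the range 1.23 to 3.88. Ndufa10 (chr1:92439010-92473860, minus strand), whose fold resembles a nucleoside kinase, had 76.6 and 297 FPKM, a ratio of 3.88 (3.73 to 4.04). The small membrane-anchored subunits Ndufc2, Ndufc1 and the X-linked Ndufa1 formed a close group, with ratios of 2.73, 2.39 and 2.38. Their levels were 98.0 and 267 FPKM for Ndufc2, 170 and 406 for Ndufc1, and 113 and 269 for Ndufa1. Ndufa8 (102 and 195 FPKM) and Ndufs5 (153 and 284 FPKM), both cysteine-motif proteins of the intermembrane space, had ratios of 1.90 and 1.85. Ndufa13, also called GRIM-19, had 88.6 and 137 FPKM (ratio 1.55). Ndufa3 (chr7:3617373-3620327, plus strand), the member with the highest level at D0, had 348 and 522 FPKM, a ratio of 1.499 (1.44 to 1.56).

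Ndufa11 (chr17:56717767-56722141, plus strand), a subunit of the membrane arm at the contact with complex III, stood apart in level from the other accessory subunits. It had 23.5 FPKM at D0 and 28.9 at D7, from 185 and 192 fragments, a ratio of 1.23 (1.00 to 1.51). Every other accessory subunit had at least 35.7 FPKM at D0. Its gene body overlaps Vmac on the opposite strand, and whether the counting used strand was not stated. The cause of the low level was not tested.

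Ndufa4 and Ndufa4l2 match the rule by name, although the Ndufa4 protein is today assigned to complex IV. Ndufa4 (chr6:11900292-11907497, minus strand) had 317 and 768 FPKM, a ratio of 2.42 (2.32 to 2.53), and was the highest member at D7. Ndufa4l2 (chr10:127514967-127517154, plus strand), a paralog known to be induced by hypoxia, had 19.8 and 22.5 FPKM, a ratio of 1.14 (0.972 to 1.34), and was the lowest member at both stages. The level of Ndufa4 was 16.03 times that of Ndufa4l2 at D0 and 34.2 times at D7. Without the pair 25 of 36 subunits rose, with a median ratio of 2.41.

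Ratios were higher for longer transcripts among the members. Across the 38 genes Spearman's rho between transcript length and ratio was 0.44 and Pearson's r on log2 scales was 0.42, and for the number of exons they were 0.54 and 0.59. Among the 27 members under 1000 bases 17 rose, with a median ratio of 2.30, and among the 11 of 1000 bases or more 9 rose, with a median of 3.42. Under the scaling by the median of all rows 9 of the shorter and 8 of the longer members rose. Of all genes with at least 19 FPKM at D0, 13.6% of 493 under 1000 bases and 6.75% of 3377 longer ones rose without that scaling. The core subunits are longer, with a median of 1661 bases against 683 for the accessory subunits. Among the 29 accessory subunits alone rho was 0.37 and r was 0.30, and the 6 of 1000 bases or more had a median ratio of 2.49 (range 1.55 to 3.88), below the core median of 3.49. Across 3870 genes with a length and at least 19 FPKM at D0, rho was -0.10, and across 43 other nuclear subunits of the respiratory chain and ATP synthase rho was 0.13 and r was -0.04. Those 43 nevertheless split by length in the same direction, with a median ratio of 2.364 for the 27 under 1000 bases, of which 20 rose, and 3.07 for the 16 of 1000 bases or more, of which 13 rose. The D0 level itself had a rho of -0.30 and an r of -0.17 with the ratio. The part of length in the difference between core and accessory subunits was not tested further.

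**Figure D3:**
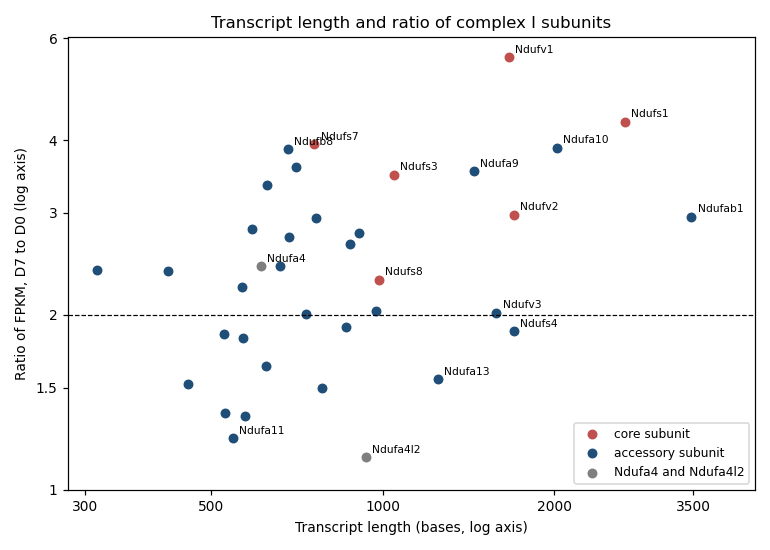
Transcript length in bases (log axis) against the ratio of FPKM, D7 to D0 (log axis), for 37 of the 38 members, with core subunits, accessory subunits and the Ndufa4 pair in different colours and a dashed line at 2. The core subunits lie mostly to the right and above, while accessory subunits under 1000 bases cover ratios from 1.23 to 3.86.

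Copies and neighbours limit some members. An annotated pseudogene matched at least 100 bases of the transcript at 95% identity or more for 8 members, namely Ndufa12, Ndufab1, Ndufb11, Ndufb3, Ndufb4, Ndufs3, Ndufs5 and Ndufs6. Of these 6 rose, with a median ratio of 2.503, beside 20 of the 30 others with 2.41. The deposited locus was over 1.5 times as long as the annotated gene not only for Ndufs7 but also for Ndufb11 (35.6 against 2.29 kb), Ndufa2 (9.48 against 2.23 kb), Ndufa4l2 (7.51 against 2.19 kb) and Ndufs1 (62.4 against 33.2 kb, with 4 other genes inside), so these values are uncertain too. A gene on the same strand overlapped 6 members and one on the opposite strand overlapped 16. The 14 members with neither an overlap nor a copy had a median ratio of 2.34, a range of 1.35 to 5.56, and 10 of them rose. Overlap was judged on annotated gene bodies, not on deposited loci. Ndufs7, whose deposited locus takes in 55 other genes, is therefore still among these 14 and among the 10. The mitochondrially encoded core subunits, listed in 7 rows, had no values and were not analysed here.

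Assembly factors, which build the complex and then leave it, stood at lower levels and lower ratios than the subunits. Of 19 listed, 18 had values, with a median of 10.5 FPKM at D0 and 18.3 at D7, and the median ratio was 1.72 with a range of 1.03 to 4.02. In this list 7 rose and 0 fell, beside 18.5% and 13.2% of all genes. Under the scaling by the median of all rows 2 rose, beside 13.4% of all genes. Foxred1 led, with 9.90 and 39.8 FPKM, a ratio of 4.02 (3.61 to 4.48), followed by Ndufaf4 (2.86 and 7.98 FPKM, ratio 2.79) and Ndufaf1 (10.4 and 26.4 FPKM, ratio 2.54). Ndufaf1, Ecsit and Tmem126b belong with Acad9 to an assembly complex for the membrane arm. Ecsit had 12.2 and 26.7 FPKM (ratio 2.19), Tmem126b 15.6 and 33.98 (ratio 2.18) and Acad9 10.6 and 18.6 (ratio 1.75). Acad9 was not alone under 2.0-fold, since 11 factors of the list stayed within it. Timmdc1, another of these, had 12.8 and 15.3 FPKM (ratio 1.19). The remaining genes that rose were Dmac2, listed as Atp5sl (3.79 and 7.99 FPKM, ratio 2.11), and Tmem186 (4.78 and 9.67 FPKM, ratio 2.02).

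The other complexes are set beside complex I with no test between lists. All 4 subunits of complex II, which also feeds ubiquinone, rose (3 under the scaling by the median of all rows), with a median ratio of 3.07. All 9 of complex III, which takes electrons from ubiquinol, rose (8 under that scaling), with a median of 3.68. In complex IV 12 of the 15 genes above 0 in both libraries rose (9 under that scaling), with a median of 2.64. Of the 15 ATP synthase subunits 8 rose (2 under that scaling), with a median of 2.10. For all 43 together 33 rose (22 under that scaling) and the median log2 ratio was 1.37, beside 1.27 for complex I, a difference of -0.11. Of all genes above 0 in both libraries 18.5% rose, or 13.4% under that scaling.

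**Figure D4:**
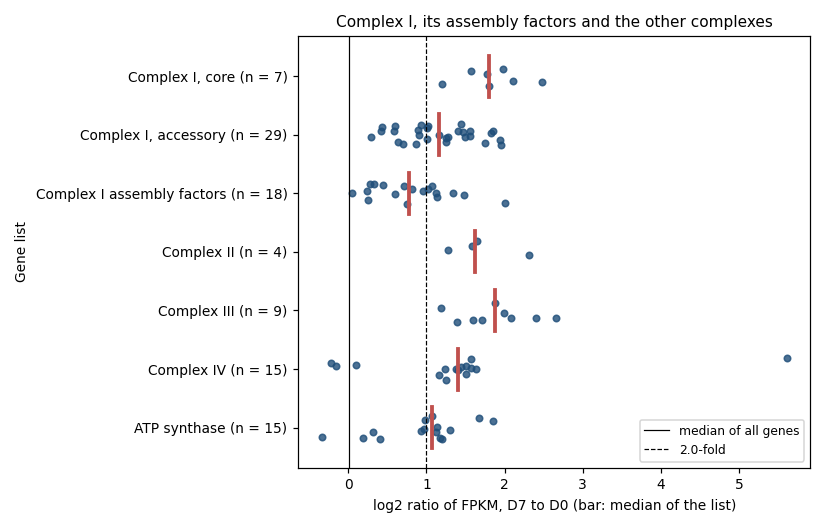
log2 ratio of FPKM, D7 to D0, for each gene (points) and the median of each list (bars), with a solid line at the median of all genes and a dashed line at 2.0-fold. The accessory subunits and assembly factors of complex I spread across the 2.0-fold line, whereas the 7 core subunits and those of complexes II and III all lie beyond it. Scaling by the median of all rows would move every point left by 0.35.

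Of 14 listed regulators of respiratory chain transcription 5 rose and 1 fell, beside 18.5% of all genes that rose and 13.2% that fell. Under the scaling by the median of all rows 5 rose and 2 fell, beside 13.4% and 21.7% of all genes. The coactivator Ppargc1a was near the limit of detection at D0, with 0.0370 FPKM from 5 fragments, and had 4.41 FPKM at D7, a ratio of 119 (50.7 to 368). Its relative Ppargc1b had 0.241 and 3.97 FPKM (ratio 16.5), and Pprc1, the third of this family, fell, with 13.6 and 5.32 FPKM (ratio 0.392). The nuclear receptor Esrra had 16.1 and 43.3 FPKM (ratio 2.69), while Esrrg (0.0820 and 0.519 FPKM, ratio 6.33) and Esrrb (0.0347 and 0.150 FPKM, 3 and 11 fragments) stayed low at both stages. Nrf1 had 7.997 and 6.69 FPKM (ratio 0.837), Gabpa 8.84 and 14.2 (ratio 1.61) and its partner Gabpb1 10.7 and 5.91 (ratio 0.552). Yy1 had 29.4 and 28.3 FPKM, a ratio of 0.963 (0.919 to 1.01). For mitochondrial DNA transcription, Tfam had a ratio of 1.28, Tfb1m 1.76, Tfb2m 1.84 and Polrmt 1.502, all within 2.0-fold.

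Matches to the Nrf1 letters were found for 7 of the 33 members with a window (21.2%), beside 4.60% of all windows. The Yy1 letters matched 7 members (21.2%), beside 2.38% of all windows, and 5 of these 7 matches lay after the start. These letters contain ATG, the bases of a start codon. Whether the matches after the start lie where translation begins was not examined. Gabpa letters matched 4 members (12.1%), beside 8.86% of all windows, and Esrra letters 3 (9.09%), beside 4.72%. These member shares count genes, whereas the shares beside them count windows. Counted over the 35 member windows, the shares were 22.9% for Nrf1, 20% for Yy1, 11.4% for Gabpa and 8.57% for Esrra. In the 250 bases before the RefSeq start alone, the Nrf1 letters matched 6 members (18.2%, beside 3.74% of all windows) and the Yy1 letters 2 (6.06%, beside 1.12%). Over member windows these shares were 20% and 5.71%. Member windows were richer in G and C (median 59% against 52.7%) and in CpG (20 against 7). The part of base composition in these shares was not tested.

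In the window of 300 bases the median ratio was not higher in members with a match, and no test was made. Members with an Nrf1 match, which include Ndufb4, Ndufs6, Ndufa8 and Ndufa11 shown above, had a median ratio of 1.90, and those without had 2.43. For Yy1 the medians were 2.39 and 2.40, for Gabpa 2.36 and 2.39, and for Esrra 1.85 and 2.43. In the 250 bases before the start alone the order turned for Gabpa, with 2.43 in the 3 members with a match and 2.38 in those without. In all 18 members had at least 1 of these matches.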

How the data were processed

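RNA-Seq libraries were prepared from mRNA of brown preadipocytes (D0) and brown adipocytes (D7) and sequenced on an Illumina HiSeq. Per the study's methods, the authors filtered reads, removed duplicate reads and ribosomal RNA, and aligned to mm10 and gene sequences with SOAP2. The labels list Bowtie2. The annotation version and the use of strand in counting are not given in the sources used here. The authors deposited 1 FPKM value per gene and library. Of 27324 rows, 3963 held no value and were not used.

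Ratios of D7 to D0 were computed from the deposited FPKM values without pseudocount or rescaling, and called at 2.0-fold, the threshold of the study. A list's median ratio is taken over genes above 0 in both libraries. Fragment numbers were recovered from 600 single-exon genes, where FPKM steps gave 21476118 fragments (D0) and 18264176 (D7) as the denominator and a length correction of 179 and 182 bases. Of values up to 20 fragments 100% were whole within 0.1 in both libraries, against 17.8% and 26.4% with lengths shuffled. The denominator and correction were chosen to make this share highest on the same values. They were not fitted again for the shuffled lengths, so the contrast is no independent check. It covers single-exon genes only, and fragment numbers of members also rest on 1 transcript length per gene. Transcript lengths came from the named transcript for 37 members and from the longest coding transcript for Ndufv3. Gene positions and overlaps are from GENCODE M21 (GRCm38), copies from BLAST, and promoters from RefSeq. To check the 95% ratio intervals, both sides were simulated by Poisson draws from the D0 fragment numbers, without the D7 depth or a length correction. The intervals held the true value for 93% of 200 changed and 94.3% of 1800 unchanged genes. These draws follow the counting model of the intervals, so this coverage says nothing of other sources of error. No p-value is given. Alternatives were 3 scalings, pseudocounts of 0.1 and 1 FPKM, a filter at 1 FPKM, thresholds of 1.5 and 4-fold, summing rows of 1 symbol, leaving out Ndufa4 and Ndufa4l2, and a shorter promoter window. A further scaling, by each library's median over all rows, was chosen after seeing the data. All members could be named, except 1 that enters the counts and medians but is not reported here by name or shown in plots of single members, and of other genes assembly factors past 2.0-fold and every regulator. The lists of modules, other complexes, assembly factors, regulators, alternative partners and cell markers, and the members, were chosen with earlier results of these data known. Acad9 and Timmdc1, assembly factors within 2.0-fold, were added after their values were seen. Python 3.11.15, numpy 2.4.6, pandas 2.3.3 and scipy 1.17.1 were used.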

Additional observations from a re-analysis of the deposited data

How the results depend on the processing

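Dividing each library by its median over all rows gave a median log2 ratio of 0.91 for the 38 subunits, with 17 past 2.0-fold, and medians of 0.73 for the N module, 1.44 for the Q module, 0.58 for the proximal arm, 1.12 for the distal arm and 0.43 for the assembly factors. Under it 4 N module, 5 Q module, 2 proximal and 6 distal members passed 2.0-fold, and the ratio of Ndufa11 was 0.961 and that of Ndufa4l2 0.891. At a threshold of 4.0-fold 2 subunits passed. Without Ndufa4 and Ndufa4l2 the SD of log2 levels at D7 minus that at D0 turned to -0.021. In the 250-base window the Yy1 letters matched 2 members. With TPM or upper-quartile scaling 23 subunits passed 2.0-fold, without Ndufb10, Ndufb4 and Ndufv3. No other alternative turned the sign of a median log2 ratio or moved the count of subunits past 2.0-fold by over 1.5 times, and the shorter promoter window turned the order of the Gabpa medians. No paired analysis was possible because each stage has 1 library, and no library could be left out for the same reason. Fragment numbers limit Ndufa11 and Ndufa4l2 most. They say nothing of the spread between cultures.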

Other observations

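Genes of other enzymes that exchange electrons with NADH or ubiquinone were also examined. Of 10 listed, 8 rose and 1 fell, with a median ratio of 4.67, beside 18.5% of all genes that rose and 13.2% that fell. Under the scaling by the median of all rows 6 rose and 1 fell. The lists were not tested against each other. Gpd2, the mitochondrial glycerol-3-phosphate dehydrogenase, which passes electrons to ubiquinone without NADH, had 9.88 FPKM at D0 and 82.5 FPKM at D7 (ratio 8.36, 95% counting interval 7.86 to 8.90). The electron transfer flavoprotein of fatty acid oxidation showed ratios of 4.82 for Etfa and 2.48 for Etfb, and its dehydrogenase Etfdh 4.53. Prodh, proline dehydrogenase, had 0.243 and 18.5 FPKM from 12 and 744 fragments, a ratio of 75.9 (41.5 to 142). Sqrdl, which oxidizes sulfide, had a ratio of 5.10, Aifm2, an NADH-using quinone reductase, 9.85, and Aifm1 2.501. RNA of Nnt, the gene of the proton-translocating transhydrogenase that uses NADH to form NADPH, fell from 22.9 to 10.3 FPKM (ratio 0.452, 0.411 to 0.496). Whether its transcript is intact and gives a working enzyme in this strain was not examined. Dhodh, of pyrimidine synthesis, stayed within 2.0-fold, with 5.09 and 9.28 FPKM (ratio 1.82).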
